A study of Mus musculus with 15 samples.

Results

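MHC class I antigen presentation was followed through 10 genes of the 41388 in the count tables: the class I heavy chain genes H2-K1 and H2-D1, the light chain gene B2m, the peptide transporter genes Tap1 and Tap2, the loading factor gene Tapbp, the immunoproteasome subunit genes Psmb8, Psmb9 and Psmb10, and the transactivator gene Nlrc5. They were taken as a list of symbols, matched through their Ensembl identifiers, and all 10 passed the filter on low counts. In class I presentation, proteasomes cut cytosolic proteins into peptides, the TAP transporter carries the peptides into the endoplasmic reticulum, and the loading complex places them on a heavy chain paired with β2-microglobulin for display to CD8+ T cells. Interferon and NF-κB signalling and the NLRC5 enhanceosome raise transcription of the pathway, and the immunoproteasome subunits replace their standard counterparts in lymphoid cells. Class I display is a property that B-cell lymphomas often lose.

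A20 is a mouse B-cell lymphoma line of the BALB/c strain. Poly(A) RNA was sequenced from A20 parental cells, labelled wild type, and from 4 CRISPR/Cas9 lines carrying a mutation in Foxp1, in exon 6 (E6.1 and E6.2) or in exon 7 (E7.1 and E7.2). All cells were grown in standard culture without further treatment, and each of the 5 lines gave 3 libraries from separate passages. Each edited line descended from 1 selected cell, so that the edit and any other property of that clone cannot be told apart, and the parental cells were not cloned alongside. Replicates therefore measured the spread between passages of a line and not the spread between clones.

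The 15 libraries held 26328054 to 39181530 counted read pairs, with a median of 35586010. Levels are given as normalized CPM (counts scaled to the library size after TMM scaling), and 3 counts corresponded to 0.0751 to 0.118 CPM, far below every value of the 10 genes, whose lowest count was 222. The third replicates of E6.2 and E7.2 stood apart: their scaling factors were the lowest of all (0.906 and 0.826), and their deviations from their own line were the most alike of any pair (r = 0.451 over 13904 genes). Mean correlations with the other libraries of the line were 0.958 for E6.2 replicate 3 and 0.972 for E7.2 replicate 3. E6.2 replicate 1 lay between them at 0.964, held the fewest counted read pairs and had the lowest Tap2, Tapbp, Psmb8 and Psmb9. All 8 B cell markers on the list were expressed, with a summed level between 3498 and 4944 CPM. T cell and fibroblast markers summed to at most 0.607 and 0.674 CPM with Cd3e and Thy1 at 0 throughout, and macrophage markers summed to between 4.96 and 32.4 CPM, nearly all of it Cd68 and Adgre1, with C1qa at 0 and Lyz2 at no more than 1 count.

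Foxp1, the edited forkhead repressor, was measured first. Its level was 102, 166 and 147 CPM in the 3 A20 parental libraries, between 99.5 and 109 CPM in the 6 E6 libraries and between 37.1 and 64.3 CPM in the 6 E7 libraries. The log2 fold change of Foxp1 was -1.29 for clone E7.1 and -1.69 for clone E7.2 (adjusted p of 0.00688 and 0.00116, quasi-likelihood F-test of edgeR, Benjamini-Hochberg), with every E7 library below every A20 parental library. In E6.1 and E6.2 the log2 fold changes of -0.41 and -0.39 did not pass the test. Without A20 parental replicate 2 the E7.1 value was -1.13 and missed the threshold (adjusted p = 0.0533, edgeR quasi-likelihood test), and in a fit of E7.2 and A20 parental alone the E7.2 value was -1.67 and missed it too (adjusted p = 0.0538, same test). A frameshift need not lower the transcript, so the counts did not check the exon 6 edits.

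Most of the members lie in the major histocompatibility complex on chromosome 17 of GRCm38. H2-K1 lies at chr17:33996017-34000333 on the minus strand, Tapbp at chr17:33915899-33929288 on the plus strand and H2-D1 at chr17:35262730-35267499 on the plus strand. Psmb9 at chr17:34181988-34187764 on the minus strand, Tap1 at chr17:34187553-34197225, Psmb8 at chr17:34197721-34201454 and Tap2 at chr17:34203527-34216321, all on the plus strand, follow each other directly. B2m lies at chr2:122147686-122153083 on the plus strand, Psmb10 at chr8:105935728-105938392 on the minus strand and Nlrc5 at chr8:94472763-94527272 on the plus strand. Tap1 and Psmb9 are transcribed away from each other, with 225 bases between their RefSeq starts, and in the annotation used for counting their exons share 212 bases, 3.87% of the exon length of Tap1 and 5.79% of that of Psmb9. Read pairs from such shared stretches were counted for neither gene. The share of exon length overlapped by other genes was 18.5% for Tap2, 22% for Tapbp and 6.80% for Psmb8, and 0 bases for the other 5 members. Counting used no strand and a C57BL/6 reference, whereas A20 carries the BALB/c alleles of H2-K1 and H2-D1, so levels of these genes are uncertain by an amount that was not tested.

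RefSeq promoter windows (GRCm38.p6, 250 bases upstream of the start) matched 8 of the 10 members, and Tap2 and Nlrc5 are named only. Each was searched on both strands for the letters of a κB site (GGGGATTCC), for the interferon-responsive letters GAANNGAAA (element 1) or AAANNGAAA (element 2), and for the Y box CCAAT, the cyclic AMP response core TGACG and the forkhead core GTAAACA. The 3 windows that lie outside annotated exons, apart from the last base of the B2m window, are shown. They belong to a heavy chain gene, the light chain gene and an immunoproteasome gene. Capitals mark the matches. They cover chr17:34000334-34000583 on the minus strand for H2-K1, chr2:122147437-122147686 on the plus strand for B2m and chr8:105938393-105938642 on the minus strand for Psmb10.
H2-K1: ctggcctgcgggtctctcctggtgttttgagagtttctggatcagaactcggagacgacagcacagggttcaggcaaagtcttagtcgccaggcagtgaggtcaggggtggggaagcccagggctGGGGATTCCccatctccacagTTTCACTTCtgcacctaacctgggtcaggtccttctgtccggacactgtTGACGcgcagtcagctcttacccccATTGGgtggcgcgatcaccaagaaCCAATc
B2m: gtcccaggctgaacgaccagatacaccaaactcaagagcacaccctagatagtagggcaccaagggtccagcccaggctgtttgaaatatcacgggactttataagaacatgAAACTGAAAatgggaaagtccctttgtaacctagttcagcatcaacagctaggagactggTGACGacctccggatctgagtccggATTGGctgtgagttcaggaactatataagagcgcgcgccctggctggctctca
Psmb10: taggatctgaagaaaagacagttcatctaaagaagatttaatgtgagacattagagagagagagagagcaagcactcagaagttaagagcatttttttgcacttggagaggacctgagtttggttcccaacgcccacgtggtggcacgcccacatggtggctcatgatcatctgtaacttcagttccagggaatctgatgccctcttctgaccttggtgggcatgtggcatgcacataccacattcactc
The H2-K1 window held a κB site, interferon element 1, a cyclic AMP core and a pair of Y boxes, in this order and without overlap. The H2-D1 window held the same matches in the same order, the κB site starting 171 bases before its start site against 125 bases in H2-K1. The B2m window held interferon element 2, a cyclic AMP core and a Y box, and the stretch between Tap1 and Psmb9 held a cyclic AMP core and a Y box. Tapbp held Y boxes only, and Psmb8 and Psmb10 held none of these motifs. The windows of H2-D1, Tapbp, Psmb8 and Psmb9 began downstream of the genes' annotated 5' ends and lay wholly in exons. Letters further upstream of these windows were not searched. The forkhead core was found in none of the 8 windows. Among 32817 windows of the same length, the κB letters occurred in 0.213%, interferon element 1 in 6.31% and element 2 in 9.37%, the Y box in 33.8%, the cyclic AMP core in 17.7% and the forkhead core in 3.16%. A match describes letters and not binding, and the windows are from the C57BL/6 reference.

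Per kilobase of exon, the light chain was the most abundant of the 10 transcripts in A20 parental cells. B2m stood at 544 CPM per kb, H2-D1 at 105, Psmb8 at 40.8, H2-K1 at 40.7 and Tapbp at 35.0 CPM per kb. Psmb10, Psmb9, Tap1 and Tap2 lay between 8.19 and 10.2 CPM per kb, and Nlrc5 at 1.66 CPM per kb was the lowest. In the plot of levels by line, the immunoproteasome genes separate E7 from E6 libraries, whereas the class I chains spread most within E6.2 and E7.2.

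**Figure D1:**
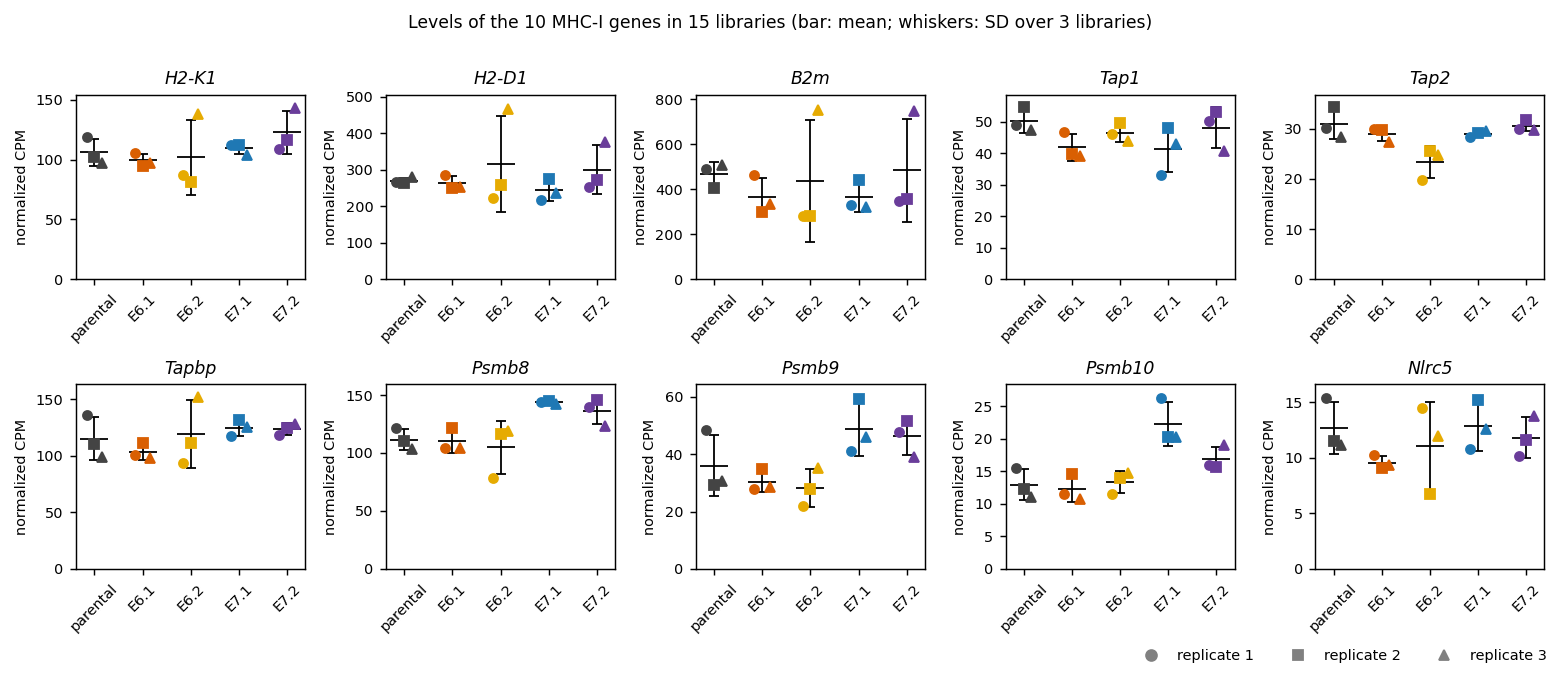
Normalized CPM (vertical axes, each from 0) of the 10 genes in the 15 libraries by line; symbols are libraries, bars the mean and whiskers the SD over 3 libraries. Psmb8, Psmb9 and Psmb10 are higher in every E7 library than in every E6 library, and the third replicates of E6.2 and E7.2 lie at the top for B2m, at 751 and 747 CPM.

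H2-K1 and H2-D1 encode the classical heavy chains that hold the peptide. H2-K1 was at 119, 103 and 96.9 CPM for A20 parental, 106, 95.1 and 97.1 for E6.1, 86.8, 81.4 and 138 for E6.2, 113, 113 and 104 for E7.1 and 109, 117 and 143 for E7.2. Every clone overlapped A20 parental, and the log2 fold changes lay between -0.10 in E6.1 and 0.21 in E7.2. H2-D1 was at 266, 264 and 279.7 CPM for A20 parental, 287, 249 and 252 for E6.1, 221, 258 and 467 for E6.2, 218, 275 and 237 for E7.1 and 254, 271 and 376 for E7.2. Here too the lines overlapped, with log2 fold changes between -0.15 in E7.1 and 0.22 in E6.2. B2m encodes the invariant light chain, and it was among the reference genes of the PCR work in the study. It was at 491, 405 and 508 CPM for A20 parental, 462, 300.2 and 333 for E6.1, 279, 279 and 751 for E6.2, 331, 440.4 and 323 for E7.1 and 349, 355 and 747 for E7.2. The highest and the lowest B2m values of the whole series came from the same clone, E6.2, and differed 2.69-fold. The 95% interval of the B2m log2 fold change in E6.2 ran from -0.90 to 0.70 and that in E7.1 from -1.16 to 0.44. Changes within these intervals were not excluded. Without the third replicates of E6.2 and E7.2, the B2m log2 fold change in E7.2 was -0.38 in place of 0.05, and that of H2-D1 in E6.2 was -0.18 in place of 0.22, neither past the test.

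The heavy chain relatives of the H2-Q, H2-T and H2-M families share sequence with H2-K1 and H2-D1. When 28 class I genes were summed to 1 feature, H2-K1 and H2-D1 made up 62.4% to 71.9% of its counts. The summed feature gave log2 fold changes of -0.03 and 0.05 in the E6 clones (E6.1 first) and -0.04 and 0.17 in the E7 clones (E7.1 first), with adjusted p between 0.718 and 0.995 in the edgeR quasi-likelihood test. The sum and the single genes thus gave no call in any clone. Read pairs hitting several places or genes had not been counted, so the sum did not recover pairs shared between these genes.

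Tap1 and Tap2 form the peptide transporter, and Tapbp encodes tapasin, which bridges it to the heavy chain. Tap1 was at 49.0, 54.7 and 47.5 CPM for A20 parental, 46.9, 39.7 and 39.3 for E6.1, 46.2, 49.7 and 43.8 for E6.2, 33.3, 47.9 and 43.0 for E7.1 and 50.2, 53.2 and 40.8 for E7.2. All 3 E6.1 libraries lay below the parental ones, but the log2 fold change of -0.26 ± 0.15 (SE) did not pass the test (adjusted p = 0.841, edgeR quasi-likelihood test). Tap2 was at 30.1, 34.3 and 28.4 CPM for A20 parental, 30.0, 29.7 and 27.4 for E6.1, 19.8, 25.6 and 24.8 for E6.2, 28.5, 29.2 and 29.5 for E7.1 and 30.0, 31.8 and 29.9 for E7.2. E6.2 was the line set apart, with its 3 libraries below all others of Tap2. Its log2 fold change of -0.41 ± 0.13 (SE) had an unadjusted p of 0.00595 and an adjusted p of 0.184 in edgeR's quasi-likelihood test across 13904 genes, and an adjusted p of 0.0397 in DESeq2's Wald test. Tapbp ranged from 93.6 to 152 CPM, both in E6.2, with a median of 118 CPM over the 15 libraries. Its log2 fold changes lay between -0.16 in E6.1 and 0.11 in E7.1, and no clone was set apart from A20 parental.

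Psmb8, Psmb9 and Psmb10 encode the catalytic subunits β5i, β1i and β2i of the immunoproteasome. Psmb8 was at 121, 110.0 and 104 CPM for A20 parental, 105, 121 and 104 for E6.1, 78.8, 117 and 119 for E6.2, 144, 145 and 142 for E7.1 and 140.1, 146 and 123 for E7.2. Every E7 library was above every A20 parental and E6 library. Psmb9 was at 48.4, 29.3 and 30.5 CPM for A20 parental, 27.9, 34.7 and 28.7 for E6.1, 22, 27.7 and 35.2 for E6.2, 41.3, 59.4 and 46.1 for E7.1 and 47.8, 51.7 and 39.2 for E7.2. The E7 libraries were again above the E6 libraries, but 1 parental library, replicate 1, reached into their range. Psmb10 was at 15.6, 12.3 and 11.1 CPM for A20 parental, 11.5, 14.6 and 10.7 for E6.1, 11.5, 13.9 and 14.8 for E6.2, 26.2, 20.2 and 20.3 for E7.1 and 16, 15.7 and 19.1 for E7.2. E7.1 was highest, E7.2 lay just above the top parental library, and A20 parental and E6 libraries overlapped. Against A20 parental, the log2 fold changes in E7.1 and E7.2 were 0.36 and 0.29 for Psmb8, 0.44 and 0.36 for Psmb9, and 0.78 and 0.38 for Psmb10, and none passed the test. The nearest was Psmb10 in E7.1 (log2 fold change 0.78 ± 0.19 SE, adjusted p = 0.0547, edgeR quasi-likelihood test), which passed with DESeq2's size factors (adjusted p = 0.0483), with DESeq2's Wald test (0.00220), with edgeR's newer quasi-likelihood method (0.0499), and without either A20 parental replicate 1, E6.2 replicate 1, E6.2 replicate 3 or E7.2 replicate 3 (0.0158 to 0.0417).

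Nlrc5, the class I transactivator, was the least abundant member. It ranged from 6.71 CPM in an E6.2 library to 15.4 CPM in an A20 parental library, and the mean ± SD was 12.7 ± 2.33 CPM in A20 parental (n = 3), 9.55 ± 0.621 for E6.1, 11 ± 3.96 for E6.2, 12.8 ± 2.23 for E7.1 and 11.8 ± 1.81 for E7.2. The E6.1 libraries all lay below the parental ones, with a log2 fold change of -0.41 ± 0.25 (SE) that did not pass the test. Its interval from -0.94 to 0.12 left a wide span of falls undetectable.

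No member was called in any clone against A20 parental. The count was 0 of 10 in each clone by the quasi-likelihood test at an adjusted p under 0.05, where 0.324% of all genes tested were called in either direction for E6.1, 1.17% for E6.2, 1.22% for E7.1 and 0.295% for E7.2. Leaving out 1 library moved these shares, to 0.195% to 0.481% for E6.1, 0.584% to 1.59% for E6.2, 0.209% (without A20 parental replicate 2) to 7.05% (without E6.2 replicate 3) for E7.1 and 0.0972% (without A20 parental replicate 3) to 1.33% (without E6.2 replicate 3) for E7.2. At an unadjusted p under 0.05 the E6 clones gave 0 members (E6.1, 6.71% of all genes) and 1 member (E6.2, 13.1%), which was Tap2, lower. The E7 clones gave 2 members (E7.1, 20%), Psmb8 and Psmb10, both higher, and 0 members (E7.2, 13.3%). DESeq2's Wald test called Tap2 in E6.2 and Psmb10 in E7.1, where it called 2.87% and 8.71% of all genes, and 0 members in the other clones (1.12% for E6.1, 1.83% for E7.2). For the mean of the 4 clones against A20 parental, the counts were 0 of 10 adjusted (0.503% of all genes) and 0 of 10 unadjusted (9.9%), and 0 by DESeq2. The libraries did not overlap A20 parental for 2 members lower in E6.1 (Tap1 and Nlrc5; 11.2% of all genes) and 1 lower in E6.2 (Tap2; 8.61%). Psmb8 and Psmb10 were the 2 members wholly above A20 parental in either E7 clone (16.4% of all genes for E7.1, 10.8% for E7.2). The median log2 fold change of the members was -0.13 for E6.1 and -0.10 for E6.2 (all genes tested -0.00081 and 0.06), and 0.03 for E7.1 and 0.13 for E7.2 (all genes -0.02 and 0.0043). Of the 10 members, 10 lay below 0 for E6.1, 7 for E6.2, 4 for E7.1 and 3 for E7.2. These comparisons share their A20 parental libraries. In bulk RNA, fewer cells expressing a gene and less transcript per cell cannot be told apart.

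**Figure D2:**
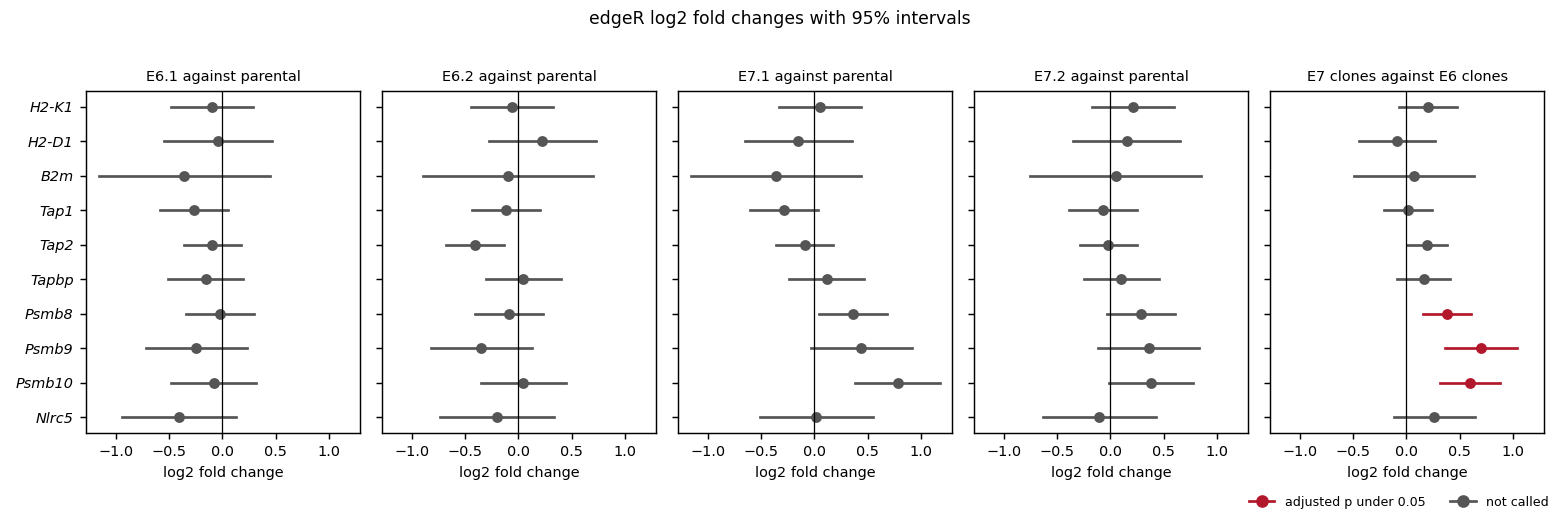
edgeR log2 fold changes (horizontal axes) with 95% intervals for the 10 genes in each clone against A20 parental and in E7 against E6 clones; red marks an adjusted p under 0.05. The 3 immunoproteasome subunits are the red points, at 0.38, 0.70 and 0.60 in the last panel, and every interval of B2m spans 0.

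Members were called in the contrast of the E7 with the E6 clones. Its SE and p rest on the spread between passages within lines, not between clones. The exon targeted and other properties of the clones therefore cannot be told apart. Between the E7 and E6 clones, 3 of 10 members were higher and 0 lower, where 6.21% of all genes were called higher and 5.85% lower. They were the immunoproteasome subunits. Psmb9 was higher in E7 by 0.70 ± 0.16 (log2 ± SE, 1.62-fold, adjusted p = 0.0158), Psmb10 by 0.60 ± 0.13 (1.51-fold, adjusted p = 0.0144) and Psmb8 by 0.38 ± 0.11 (1.30-fold, adjusted p = 0.0341) in the quasi-likelihood F-test of edgeR, Benjamini-Hochberg adjusted. For each of these genes all 6 E7 libraries lay above all 6 E6 libraries, which 1.81% of all genes showed in this direction. The other 7 members did not pass, with log2 differences from -0.09 for H2-D1 to 0.26 for Nlrc5, and Tap2 had 0.19 ± 0.09 (SE) with an adjusted p of 0.157 in the same test. Calls in this contrast depended on single E6.1 libraries. Without E6.1 replicate 1 or without E6.1 replicate 3, 0 members passed at this threshold, with log2 differences still of 0.67 and 0.68 for Psmb9, 0.58 and 0.55 for Psmb10 and 0.37 and 0.36 for Psmb8, and the genes called in all dropped from 1677 to 399 and 431. Psmb8 also missed the threshold without A20 parental replicate 2, without each of the E7.1 replicates in turn and without E7.2 replicate 1 or 2 (adjusted p from 0.0517 to 0.0930, edgeR quasi-likelihood test). Without E6.2 replicate 3, 5 members passed, with H2-K1 at 0.36 and Tapbp at 0.29 added, and 3847 genes in all were called.

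The E7 against E6 difference was also read clone by clone. Psmb10 was higher in E7.1 than in E6.1 by 0.86 (adjusted p = 0.0278) and than in E6.2 by 0.73 (adjusted p = 0.0203), and Psmb9 was higher in E7.1 than in E6.2 by 0.79 (adjusted p = 0.0300, edgeR quasi-likelihood tests). For E7.1 against E6.1, 3.24% of all genes were called, and for E7.1 against E6.2, 16.9%. Psmb10 lost its call against E6.1 without E6.1 replicate 1 or 3 or any E7.1 replicate, and its call against E6.2 without E6.2 replicate 1 or E7.1 replicate 1. Psmb9 lost its call without E6.2 replicate 1 or 2 or any E7.1 replicate, and both calls against E6.2 were lost in fits of those lines alone (adjusted p = 0.0791 for Psmb9 and 0.0702 for Psmb10, edgeR quasi-likelihood test). E7.2 had log2 differences of 0.60 and 0.71 for Psmb9 from E6.1 and E6.2, of 0.46 and 0.33 for Psmb10 and of 0.31 and 0.38 for Psmb8, and 0 of 10 members were called in either pair by the same test, where 0.352% and 2.24% of all genes were; at an unadjusted p under 0.05 the counts were 2 and 3 members (11.6% and 19.1% of all genes). DESeq2 was not run on pairs of clones. Within an exon, 0 members were called between E6.2 and E6.1 or between E7.2 and E7.1 (1.24% and 0.59% of all genes), and 1 passed an unadjusted p under 0.05 in each, Tap2 in the former (12.9% of all genes) and Psmb10 in the latter (13.3%). With the lines ordered by mean level for each gene, none of the 40 neighbouring pairs was called, so the order itself is not resolved at any step. A joint test of any difference among the 5 lines called 1 member, Psmb10 (adjusted p = 0.0349, edgeR quasi-likelihood test), and 6.28% of all genes. This call was lost, leaving 0 members, without any of 9 single libraries: A20 parental replicate 2 or 3, E6.1 replicate 1 or 3, any E7.1 replicate, or E7.2 replicate 1 or 2.

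Immunoproteasome subunits were then set against the standard subunits they replace, as ratios of CPM per kb within a library, which do not depend on library scaling. The 6 ratios were chosen after the values of the genes had been seen, and 6 libraries of 2 clones are not independent measures of an exon, so they are given as a description without a test. Psmb8:Psmb5 had a geometric mean of 0.786 in E7 and 0.603 in E6, Psmb9:Psmb6 of 0.265 and 0.172, and Psmb10:Psmb7 of 0.0663 and 0.0504. The log2 differences were 0.38, 0.63 and 0.40. The single libraries overlapped, Psmb8:Psmb5 starting at 0.700 in E7 and reaching 0.738 in E6, Psmb9:Psmb6 starting at 0.166 and reaching 0.205, and Psmb10:Psmb7 starting at 0.0562 and reaching 0.0602. Psmb10:Psmb7 was the lowest of these ratios, at 0.041 to 0.0751 over the clones. The A20 parental ratios of 0.591 to 0.770 for Psmb8:Psmb5 and 0.0446 to 0.0643 for Psmb10:Psmb7 overlapped both groups, whereas those of Psmb9:Psmb6, at 0.225 to 0.318, overlapped E7 and lay above all E6 libraries.

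The ratio of the divergent pair, Psmb9:Tap1, was between 1.42 and 1.86 in the 6 E7 libraries and between 0.713 and 1.31 in the 6 E6 libraries, with no overlap. The log2 difference was 0.70, and A20 parental libraries ran from 0.803 to 1.48 and overlapped both. Tap1 itself differed between E7 and E6 by 0.01 with a 95% interval from -0.21 to 0.24. H2-D1:H2-K1 had a geometric mean of 2.34 in E7 against 2.85 in E6, with libraries between 1.95 and 2.65 in E7 and between 2.58 and 3.42 in E6. The ratio of summed heavy chains to B2m differed by -0.10 on the log2 scale.

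**Figure D3:**
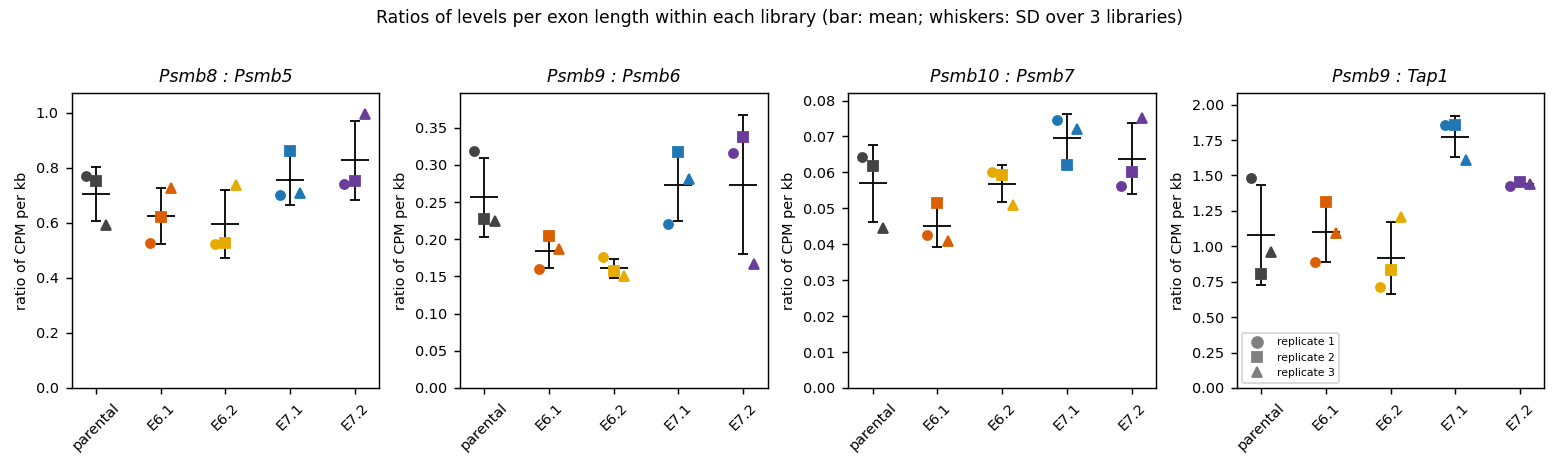
Ratios of CPM per kb within each library (vertical axes, from 0) for the immunoproteasome subunits over their standard counterparts and for Psmb9 over Tap1; symbols are libraries, bars the mean and whiskers the SD over 3 libraries of a line. Psmb9:Tap1 in E7 libraries starts at 1.42, above the E6 maximum of 1.31, and A20 parental overlaps both.

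Some members varied together over the libraries, as a description. Over 15 libraries, which share lines and library scaling, log2 CPM correlated at r = 0.891 for Psmb8 with Psmb9, 0.795 for Psmb8 with Psmb10, 0.886 for H2-D1 with B2m and 0.813 for H2-K1 with B2m. After removal of line means, H2-D1 with B2m stood at 0.954 and H2-K1 with B2m at 0.897. Psmb8 with Psmb9 then stood at 0.735 and Psmb8 with Psmb10 at 0.535. Leaving out the third replicates of E6.2 and E7.2, the correlation with B2m over 13 libraries was 0.723 for H2-D1 and 0.565 for H2-K1. The lowest of the 45 pairs was Tap1 with Psmb10, at -0.42. Genes most like the mean standardized profile of the 10 members, among 13894 others over 15 libraries, were Mfng (r = 0.939), Them6 (0.937), Acads (0.935) and D10Jhu81e (0.919). The least like were Gm9967 (-0.94), Gabpb2 (-0.93), Nrip2 (-0.93), Rnf225 (-0.92) and Adam1a (-0.92). None of these is a member of the lists of pathway genes.

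**Figure D4:**
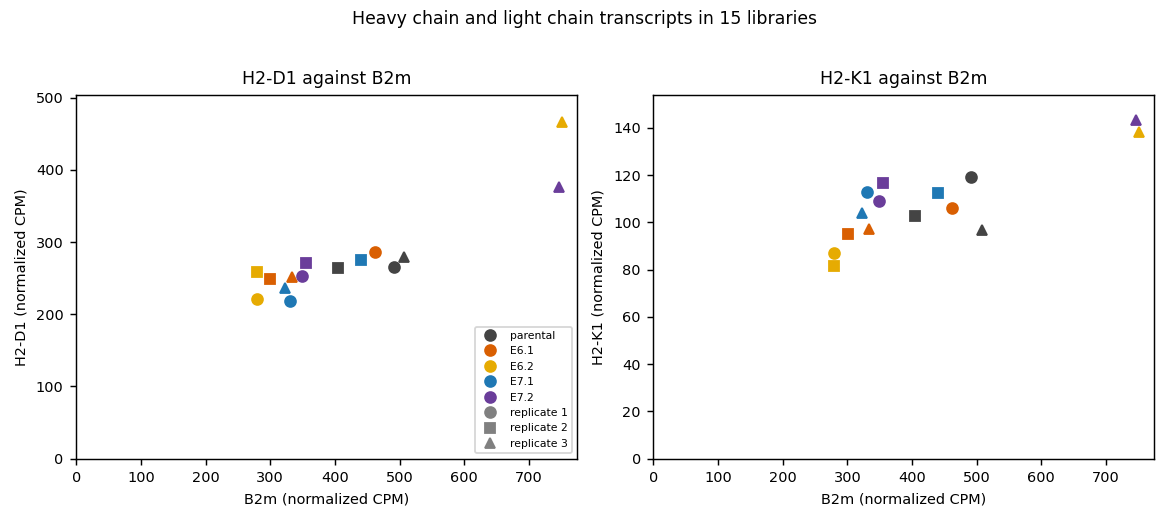
H2-D1 and H2-K1 (vertical axes) against B2m (horizontal axes), all in normalized CPM from 0, for the 15 libraries; colours are lines and symbols replicate numbers. The third replicates of E6.2 and E7.2 lie apart at 751 and 747 CPM of B2m, and the other 13 libraries lie between 279 and 508.

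Other genes of the pathway were read from 4 lists. Against A20 parental, 0 of the genes tested were called in any clone or in the mean of the clones by edgeR's quasi-likelihood test: 0 of 13 heavy chain relatives, 0 of 11 loading, trimming and folding genes, 0 of 9 proteasome counterparts and activators and 0 of 22 transcription regulators. At an unadjusted p under 0.05 the relatives gave 1 and 3 genes in the E6 clones and 2 and 1 in the E7 clones (clone 1 before clone 2), the loading genes 1, 1, 2 and 4, the proteasome genes 1, 0, 3 and 0, and the regulators 1, 5, 4 and 2; for the mean of the clones the lists gave 1, 1, 0 and 2. The shares of all genes at this threshold were 6.71% and 13.1% in the E6 clones, 20% and 13.3% in the E7 clones and 9.9% in the mean of the clones. DESeq2's Wald test called H2-M3, lower, in E6.2, and Calr, Psmb7, Pomp and Nfyc, higher, in E7.1, and no other gene of these lists against A20 parental, in the fits whose shares of all genes are given with the members. In E7 against E6, where 6.21% of all genes were called higher and 5.85% lower, 2 of 13 relatives were higher. They were the nonclassical H2-Q2 by 0.49 and H2-T24 by 0.62 (adjusted p = 0.0484 and 0.0490, edgeR quasi-likelihood test). The relatives were counted on the same C57BL/6 reference as H2-K1 and H2-D1, with an effect on their levels that was not tested. Of the loading genes, 2 of 11 were higher and 1 lower. Calr and Pdia3, which encode the chaperone calreticulin and the disulphide isomerase ERp57 of the loading complex, were higher by 1.02 and 0.98 (adjusted p = 0.0464 and 0.0226), and Tapbpl, which encodes the peptide editor TAPBPR, was lower by 0.81 on the log2 scale (adjusted p = 0.0192, edgeR quasi-likelihood test). Calr rested on wide spreads, at 1023 ± 383 CPM in E7.1, 972 ± 579 in E7.2, 437 ± 75.9 in E6.1 and 553 ± 332 in E6.2 (SD, n = 3). Tapbpl was at 15.8 ± 0.723 CPM for E7.1 and 15.3 ± 1.55 for E7.2 against 25 ± 3.63 in E6.1 and 29.6 ± 10.8 in E6.2, with every E7 library below every E6 library. Of the regulators, 0 of 22 were higher and 2 lower, Creb1 by 0.59 and Irf9 by 0.50 on the log2 scale (adjusted p = 0.0483 and 0.0480, edgeR quasi-likelihood test). Creb1 encodes a factor that binds cyclic AMP response elements, and Irf9 the DNA-binding part of the interferon-stimulated factor ISGF3. None of the 9 standard proteasome subunits, activators and assembly factors was called in E7 against E6. Of these, 3 had an unadjusted p under 0.05 (30.3% of all genes), and the smallest adjusted p was 0.0625 (edgeR quasi-likelihood test). DESeq2's Wald test called 2, Psme2 and Pomp, in a fit that called 19.4% of all genes. The 7 calls in these lists depended on single libraries, and all were lost without E6.1 replicate 1 or without E6.1 replicate 3. Leaving out 1 of the 15 libraries at a time, Tapbpl lost its call with 3 of them (E7.2 replicate 1 being the other), Pdia3 with 4 (E6.2 replicate 2 and E7.1 replicate 1 being the others), H2-T24 with 9, H2-Q2 with 12, and Calr, Creb1 and Irf9 with 13 each, always in the same direction. Without E6.2 replicate 3, 6 relatives, 3 loading genes, 4 proteasome genes and 2 regulators were called higher, and 1 loading gene and 4 regulators lower, in a fit that called 26.8% of all genes. The median log2 difference was 0.24 for the relatives, -0.02 for the loading genes, 0.18 for the proteasome genes and 0.01 for the regulators, beside 0.20 for the 10 members and -0.03 for all genes. Among the 8 B cell markers, 2 were called higher in E7 than in E6 (6.21% of all genes), and the others were not called. They were Cd79a by 1.08 (adjusted p = 0.00370) and Ms4a1 by 0.44 (adjusted p = 0.0407, edgeR quasi-likelihood test, the latter lost without any of 11 single libraries). The summed level of the list was 3498 to 4212 CPM in E6 libraries, 3977 to 4944 in E7 libraries and 3681 to 4094 in A20 parental libraries. Of 6 fibroblast markers, Dcn was called higher in E7, at 6 to 21 counts a library against 0 in E6.2 and 3 to 8 in E6.1, and the list summed to at most 0.674 CPM. Of 6 macrophage markers 3 passed the filter, and all 3 had positive log2 differences that were not called, 1.33 for Adgre1 (adjusted p = 0.0627, edgeR quasi-likelihood test), 0.99 for Itgam and 0.74 for Cd68. The macrophage list summed to 4.96 to 13.4 CPM in E6 libraries, 10.9 to 32.4 in E7 libraries and 7.1 to 19.3 in A20 parental libraries, with C1qa at 0. The part of these genes in the result was not tested.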

How the data were processed

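The deposited files held raw counts, 1 file per library, which the authors had made with HISAT alignment to GRCm38 (mm10), SAMtools and featureCounts 1.5.0. Per the file headers, read pairs were counted per gene without strand, and pairs hitting several places or genes were not counted. Each file listed 41480 features, of which 92 were spike-ins without a count, and 40254 of the other 41388 had a symbol in the GENCODE name table. Counts were fitted with edgeR 4.0.16 in R 4.3.3 (TMM, filterByExpr leaving 13904 genes, glmQLFit and glmQLFTest, line as the only factor over all 15 libraries), with Benjamini-Hochberg adjustment over all genes tested in each comparison and calls at an adjusted p under 0.05. The SE is the log2 fold change divided by the square root of F. For correlations, log2(CPM + 0.5) was used. The fit was tested on simulated data. Ratios were described without a test. Alternatives were DESeq2's size factors, DESeq2 1.42.0's Wald test, no filter, edgeR's newer method, fits of only the lines compared, a replicate block, each library left out, replicate 3 of both E6.2 and E7.2 left out, and summed class I genes. The members and lists were chosen with earlier results of these data known. All members are named, other pathway genes only where called in E7 against E6, in a clone or in the mean of the clones, plus Foxp1 and the 5 most and 5 least alike genes, of which 1 is not reported here. Same-numbered libraries of clones and A20 parental were weakly alike at most (r between deviations -0.05, 0.08, 0.01 and 0.13), and the main fit did not pair them. Between E6.2 and E7.2 all same-numbered libraries deviated together (r = 0.214, 0.295 and 0.451). Those of A20 parental and E7.2 did so more weakly (r = 0.142, 0.0706 and 0.163). The pattern was not particular to the number, as E6.2 replicate 2 with E7.2 replicate 1 reached 0.355. E7.2 against E6.2 was also fitted with the block, which gave 0 called members as without it.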

Additional observations from a re-analysis of the deposited data

Results flagged for a closer look

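Several members differed between the E7 and E6 clones by a test whose p rests on the spread between passages within lines, not between clones. In E7 against E6 clones the log2 differences were 0.38 for Psmb8, 0.70 for Psmb9 and 0.60 for Psmb10. Without E6.1 replicate 1 or without E6.1 replicate 3, 0 members passed in this contrast. In pairs of clones, Psmb9 was higher in E7.1 than in E6.2 by 0.79. Psmb10 was higher in E7.1 than in E6.1 by 0.86 and than in E6.2 by 0.73. Both calls against E6.2 were lost in fits of those lines alone, and 0 members were called for E7.2 against either E6 clone. Of the other pathway genes read, H2-Q2, H2-T24, Calr and Pdia3 were higher in E7 than in E6 clones by the same quasi-likelihood test. Tapbpl, Creb1 and Irf9 were lower. All these calls were lost without E6.1 replicate 1, and likewise without E6.1 replicate 3. With 3 libraries per line, no rule for a single library far from the rest was applied to single genes, and the pair of libraries that stood apart is described with the libraries.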

How the results depend on the processing

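The limits are few libraries per line, 1 clone per line and clone pairs per exon, unstranded counting on a C57BL/6 reference, and replicate 3 of E6.2 and E7.2. Members called against A20 parental numbered 1 in E6.2 with DESeq2's Wald test (Tap2), and 1 in E7.1 (Psmb10) with DESeq2's size factors, DESeq2's Wald test, edgeR's newer method and both replicate 3 libraries removed; leaving out each library gave 0 to 1 in E7.1. In E7 against E6 clones, 5 were called with both replicate 3 libraries removed, and 0 to 5 with each library left out (0 without E6.1 replicate 1 or 3, 5 without E6.2 replicate 3). The joint test of the 5 lines called 2 without a filter, 4 without both replicate 3 libraries, 0 to 3 with each library left out, and 0 with the replicate block; the block changed no other call of a member in the comparisons run with it, and H2-Q2, Creb1, Irf9 and Ms4a1 lost theirs between E7 and E6. Psmb8 missed the threshold in E7 against E6 without a filter (adjusted p = 0.0676, edgeR). In the same contrast, fits of only the lines compared lost the calls of H2-Q2, Calr, Creb1 and Irf9. DESeq2's size factors lost those of Creb1 and Irf9, and unfiltered counts those of H2-Q2, Irf9 and Ms4a1. The adjusted p of these lost calls ran from 0.0510 to 0.0769 (edgeR quasi-likelihood test). In all other comparisons and settings run, counts of called members stayed within 1.5 times. Over all genes, DESeq2's Wald test called 155 and 398 genes in the E6 clones and 1160 and 254 in the E7 clones, 178 in the mean of the clones and 2684 in E7 against E6, where edgeR called 45, 163, 169, 41, 70 and 1677; without both replicate 3 libraries, edgeR called 132, 323, 2166, 219, 166 and 4734. Unfiltered counts gave 74, 343 and 106 genes in E6.1, E7.1 and the mean of the clones and 1617 in the joint test (873 in the report), and fits of only the lines compared gave 111 in E6.1, 45 in E6.2 and 18 in E7.2. The cause was not tested.

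Uncalled log2 fold changes that changed sign were as follows. Summed class I genes gave 0.052 for E6.2, -0.039 for E7.1 and 0.057 between E7 and E6 clones in place of a heavy chain gene alone. Without both replicate 3 libraries, H2-K1 was at -0.058 in the mean of the clones, and H2-D1 at -0.18 in E6.2, -0.0062 in E7.2, -0.086 in the mean of the clones and 0.040 in E7 against E6. B2m was at -0.38, Tap1 at 0.073 and Tap2 at 0.032 in E7.2, Tapbp at -0.17 in E6.2 and -0.018 in the mean of the clones, and Psmb10 at -0.032 in E6.2. With the replicate block, B2m was at -0.023 in E7.2. With each library left out, values of either sign occurred for the following. In E6.2 they were -0.31 to 0.080 for H2-K1, -0.15 to 0.41 for H2-D1, -0.72 to 0.14 for B2m, -0.15 to 0.19 for Tapbp, -0.18 to 0.064 for Psmb8, -0.056 to 0.21 for Psmb10 and -0.46 to 0.054 for Nlrc5. In E7.1 they were -0.010 to 0.16 for H2-K1 and -0.12 to 0.20 for Nlrc5. In the mean of the clones they were -0.032 to 0.13 for H2-K1, -0.037 to 0.10 for H2-D1, -0.068 to 0.17 for Tapbp, -0.074 to 0.33 for Psmb9 and -0.26 to 0.0020 for Nlrc5. In E7.2 they were -0.0060 to 0.27 for H2-D1, -0.38 to 0.24 for B2m, -0.15 to 0.073 for Tap1, -0.075 to 0.064 for Tap2 and -0.19 to 0.082 for Nlrc5. In E7 against E6 clones they were -0.16 to 0.12 for H2-D1, -0.13 to 0.41 for B2m and -0.043 to 0.094 for Tap1. In E6.1 they were -0.096 to 0.039 for Psmb8, -0.37 to 0.022 for Psmb9 and -0.22 to 0.067 for Psmb10. DESeq2's Wald test was not run for the joint comparison, and fits of only the lines compared were not run for it or for the mean of the clones.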
